A study of Mus musculus with 46 samples.

Results

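Acetylation of lysine 27 of histone H3 (H3K27ac) was compared in visceral adipose tissue of mice between the recovered state after corticosterone and vehicle, at 15 weeks. The 28322 sites of the authors' deposited table for that comparison were taken without selection, out of 135960 sites in the 6 tables of differences between groups. Of the 46 samples of the series, 20 are RNA-seq libraries, and the others are ChIP-seq libraries of 3 histone marks or their inputs. Mice of the CORT groups were given corticosterone, a glucocorticoid hormone of rodents, to model Cushing's syndrome. The 5 week CORT samples represent the active disease, the 15 week CORT samples the recovered mice, and both times have VEH (vehicle) controls of their own. H3K27ac was immunoprecipitated with a Millipore antibody in 2 libraries per group, and Drosophila chromatin was added as a spike-in. The labels used here give no strain, sex, age or pooling of animals, and they do not say whether replicate libraries came from separate animals or whether ChIP and RNA came from the same ones.

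H3K27ac is laid down by the acetyltransferases p300 and CBP and removed by histone deacetylases. It marks active promoters, where it occurs together with trimethylation of lysine 4 (H3K4me3), and active enhancers, which mostly lack strong H3K4me3. On the same residue, Polycomb complexes place trimethylation (H3K27me3), a mark of repressed genes. In adipose tissue, broad H3K27ac domains are found around genes of adipocyte identity, and the glucocorticoid receptor, a hormone-activated transcription factor, binds many enhancers that carry this mark.

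The deposited table rests on 1 CORT library: its overall signal equals the log2 mean of 1 CORT and 2 VEH libraries within 0.02 at 100% of the 28322 sites, whereas a mean of 2 and 2 libraries matched at 6.5% of them, and the name of the table gives only the second CORT library. The first CORT library at 15 weeks had 1810 peaks covering 2.1 Mb, against 29341 peaks (59.8 Mb) in CORT replicate 2, 20644 (38.8 Mb) in VEH replicate 1 and 52108 (132.9 Mb) in VEH replicate 2. No spread between CORT replicates therefore lies behind any site of this table, and the VEH libraries themselves differed by more than 2-fold in their number of peaks. The choice of sites was also uneven between groups. All peaks of CORT replicate 2 lay in the table (0 outside), while 1673 peaks of VEH replicate 1 (8.1%) and 25885 of VEH replicate 2 (49.7%) did not. Read depth of the ChIP libraries is not given in the files used here, and whether the spike-in entered the normalization is not stated in them.

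H3K27ac signal at 15 weeks was higher in CORT than in VEH at most sites. The difference between the group values, on the log2 scale of mean normalized reads per site, had a median of 0.71 (quartiles 0.38 and 1.06), which is 1.64-fold. It was above 0 at 25978 sites (91.7%), below 0 at 2270 and equal to 0 at 74. The authors' test called 4377 sites higher at a false discovery rate (FDR) below 0.05, which is 15.5% of the table, and 0 sites lower (0%). Among the sites below 0, 5 had an unadjusted p under 0.05, and their lowest FDR was 0.0537. No other test could be run, since the table holds group values and not libraries. In bulk tissue a different mix of cells and a different acetylation per cell cannot be told apart, and neither can be told apart from the scaling between 1 CORT library and 2 VEH libraries.

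The other tables showed the same general shift towards CORT. The median difference was 0.48 for H3K27ac at 5 weeks, 0.85 for H3K4me3 at 15 weeks and 0.65 for H3K27me3 at 15 weeks, a mark of repressed chromatin. With the H3K27ac differences at 15 weeks centred on their median of 0.71, 1495 sites were at least 2-fold higher and 759 at least 2-fold lower, against 8090 and 20 before centring. Of the 4377 called sites, 4317 stayed above the table's median and 48 lay below it. The sizes among called sites ran from 0.59 to 3.16.

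**Figure D1:**
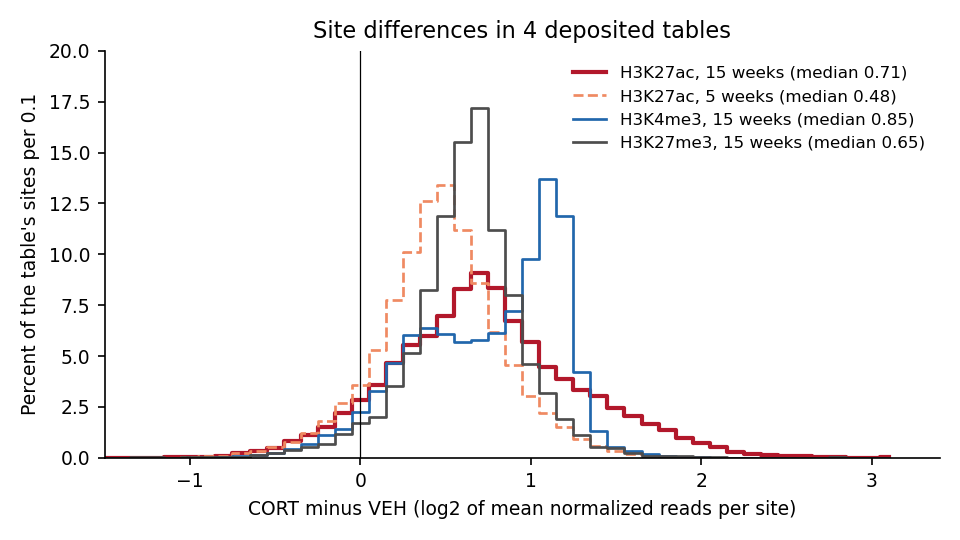
Percent of sites per bin of 0.1 (vertical axis) against the difference between CORT and VEH on the log2 scale (horizontal axis), for 4 of the deposited tables. Each distribution lies mostly above 0, with a median of 0.71 for H3K27ac at 15 weeks.

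Which sites were called followed the height of the signal as well as the size of the difference. The smallest difference that was called was 1.59 at sites with a mean signal of 5 to 6 on the log2 scale, 1.22 at 6 to 7, 0.94 at 7 to 8, 0.76 at 8 to 9 and 0.67 at 9 to 10. On a grid of signal and difference, with cells of 0.1 by 0.05 that held 3 or more sites, 1460 of 2028 cells held no called site, 442 held called sites alone and 126 were mixed. The sharp edge shows that a site's call was nearly set by its mean signal and its difference. A further 4717 sites were at least 2-fold higher without a call. At the threshold itself, the last called site had an FDR of 0.0499 with a difference of 1.24, and the first site not called an FDR of 0.0501 with a difference of 0.68.

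**Figure D2:**
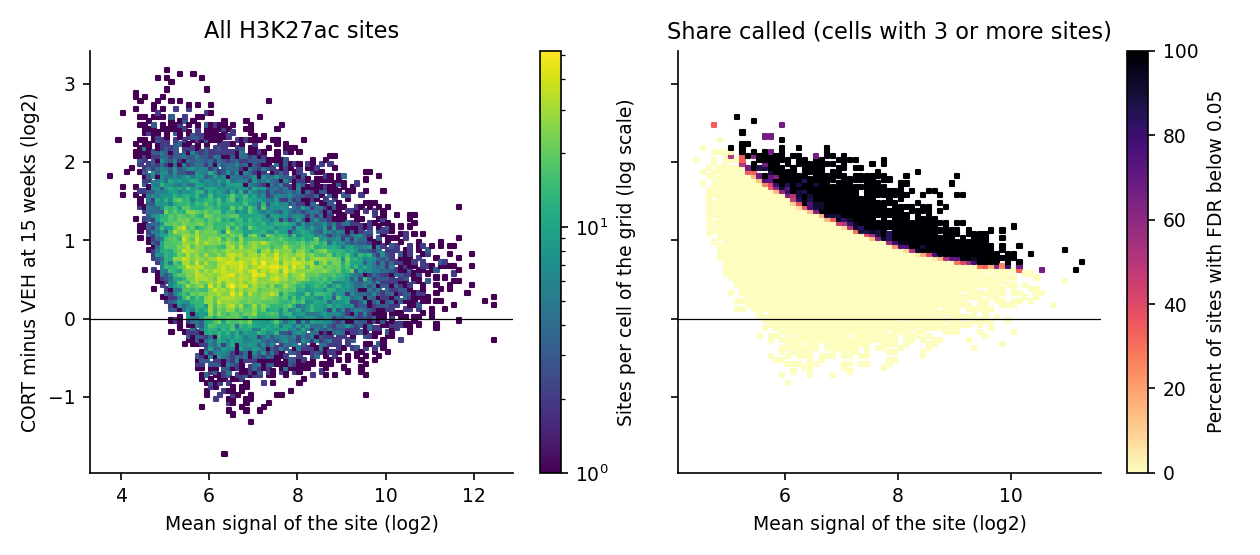
Left, number of H3K27ac sites (colour, log scale) by mean signal on the log2 scale (horizontal axis) and difference between CORT and VEH at 15 weeks (vertical axis). Right, percent of sites called by the authors' test in cells with 3 or more sites: the smallest called difference falls from 1.59 at a signal of 5 to 6 to 0.67 at 9 to 10.

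Called sites were wider and stronger than the rest. Their median width was 3054 bases, against 2005 for sites not called, and their median signal was 8.42 in CORT and 7.04 in VEH, against 7.02 and 6.48. These signals are per site and not per length, so that wide sites hold more reads. Sites of up to 1000 bases had a median difference of 0.85 and the smallest share called (0.722%). The median was 0.84 at 1000 to 2000 bases and became smaller with width, with 0.66 at 2000 to 4000 bases, 0.56 at 4000 to 8000, 0.42 at 8000 to 16000 and 0.36 above 16000, while the share called was 8.84%, 19.6%, 28.9%, 28.3% and 25.9% in these 5 classes. The broadest domains thus lay closer to 0, and below the table's median after centring (-0.35 in the widest class), and the share called was highest at 4000 to 8000 bases. Width also went with the 15 week libraries that had a peak. Sites with a peak in CORT replicate 2 alone had a median width of 1129 bases and a median difference of 1.75. Sites with peaks in CORT replicate 2 and both VEH libraries had 2874 bases and 0.58. The part of this choice of sites in the fall with width was not tested. Over 20 chromosomes (Y left aside, with 4 sites) the median lay between 0.68 and 0.78, and the share called between 11.0% and 17.9%.

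The size of the difference went with the libraries that had a peak at a site. At 15258 sites (53.9%), CORT replicate 2 and both VEH libraries had a peak, the median difference was 0.58 and 2292 sites (15%) were called. At 10031 sites (35.4%), CORT replicate 2 and VEH replicate 2 had a peak and VEH replicate 1 had none, and the median was 1.0 with 16.7% called. At 1393 sites only CORT replicate 2 had a peak, and there the median was 1.75 and 407 sites (29.2%) were called. The fewer VEH peaks a site had, the larger was its difference, which is a description, since a site without a VEH peak has a low VEH signal. At the 16234 sites with a peak in both VEH libraries, the median was 0.55 and 14.1% were called. Of these, 15258 also had a peak in CORT replicate 2. VEH peaks outside the table have no value, so this subset is not free of the uneven choice of sites.

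Sites that had a VEH peak and lacked one in CORT replicate 2 numbered 1640 (5.79%). The 976 of them with a peak in both VEH libraries had a median difference of -0.21, and the 664 with a peak in VEH replicate 2 alone had a median of 0.15. None of them was called in either direction by the authors' test. CORT replicate 1 had a peak at 1623 sites, and the other 3 libraries had one at all of these. These sites were strong, with a median signal of 9.43 in CORT and 8.78 in VEH, their median difference was 0.70, and 36.8% were called.

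**Figure D3:**
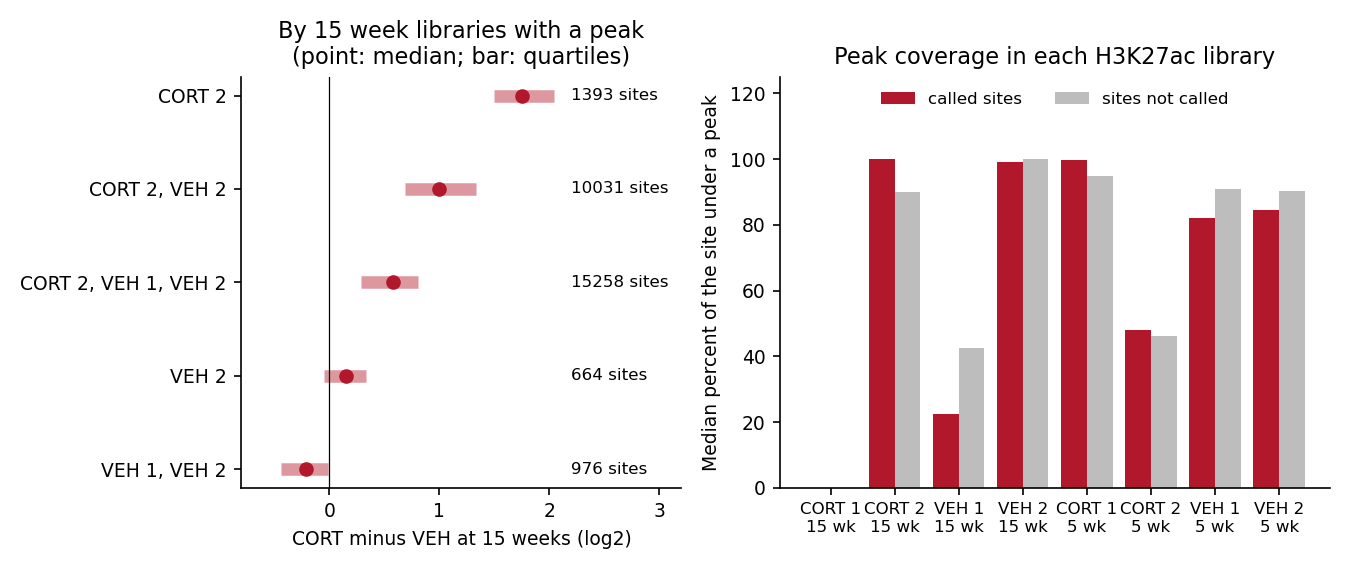
Left, difference between CORT and VEH at 15 weeks (log2, median as a point and quartiles as a bar) by the 15 week libraries that had a peak at the site, with CORT replicate 1 left aside. Right, median percent of a site lying under peaks of each H3K27ac library, for called sites and for those not called: VEH replicate 1 at 15 weeks covered 22.6% of a called site, and the bars of CORT replicate 1 at 15 weeks are at 0.

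Within a site, the width of the peaks separated CORT replicate 2 from VEH replicate 1 far more than from VEH replicate 2. Peaks of CORT replicate 2 covered a median of 100% of a called site, those of VEH replicate 2 99% and those of VEH replicate 1 22.6%. Against VEH replicate 1, CORT replicate 2 had the wider cover at 99.4% of called sites and at 79.7% of sites not called. Against VEH replicate 2, it had the wider cover at 45.7% of called sites and the narrower one at 42.1%, and at sites not called the shares were 12.9% and 54.2%. CORT replicate 2 was thus wider than VEH replicate 1 at nearly all called sites, and about as often wider as narrower than VEH replicate 2. These covers are not free of how the sites were drawn. A peak start of CORT replicate 2 or VEH replicate 2 is the start of 99.3% of sites, and every called site has a peak of CORT replicate 2. High cover by these libraries, and less by VEH replicate 1, thus follows in part from the borders of the sites. Peak calling also depends on depth, which is unknown here, and its part in these widths was not tested.

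The 10 sites with the smallest FDR had differences of 1.62 to 2.10 and FDRs of 1.06e-08 to 4.05e-07. They were 5.4 to 12.7 kb wide. CORT replicate 2 covered 97.3% to 100% of each of them, VEH replicate 2 54% to 99.6%, VEH replicate 1 0% to 31.7%, and CORT replicate 1 had a peak at 0 of 10. An H3K4me3 peak lay at 8 of the 10 in at least 1 library and at 4 of them in all 4 libraries, so that sites with and without this promoter mark were among them. At 5 weeks the H3K27ac differences of the 10 were 0.84 to 1.54. Their FDRs at 5 weeks were 0.0047 to 0.2, and 1 of the 10 was called higher then. The files pair no site with a gene, and no gene annotation of their build, mm9, was used here, so sites are given by position as the authors' table has them.

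The strongest call was chr8:47970276-47981387, 11.1 kb wide, with a signal of 10.60 in CORT and 8.73 in VEH, a difference of 1.87 and an FDR of 1.06e-08. CORT replicate 2 covered 100% of it with a highest peak score of 2670, VEH replicate 2 86.2% with 2270, VEH replicate 1 11.3% with 76.5, and CORT replicate 1 had no peak. The scores are the authors' peak caller's own and, like the cover, depend on the library, and on both measures VEH replicate 1 stood below VEH replicate 2 at this site. Next came chr9:59384430-59397120, with a signal of 10.80 in CORT and 8.98 in VEH, a difference of 1.82 and an FDR of 2.61e-08. It carried strong H3K4me3 peaks in all 4 libraries, and its H3K4me3 difference was 1.24 with an FDR of 4.59e-14 in the authors' deposited table for that mark. The third, chr11:114789476-114796516, had 9.88 in CORT and 7.78 in VEH, a difference of 2.10 and an FDR of 5.51e-08. Its H3K4me3 signal was also higher, by 1.90 with an FDR of 0.00638.

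The 5 largest differences were small sites of another kind. They measured 1.0 to 1.9 kb, their differences were 3.10 to 3.16, and their VEH signal was only 3.15 to 3.99. At each of them CORT replicate 2 was the only 15 week library with a peak, and CORT replicate 1 was the only 5 week library with one. The first of them, chr2:157325768-157327132, had a signal of 6.31 in CORT and 3.15 in VEH, a difference of 3.16 and an FDR of 0.00325. The second, chr8:18698593-18700078, had 6.98 in CORT and 3.84 in VEH, a difference of 3.14 and an FDR of 0.000541.

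At the other end, the 5 largest differences towards VEH ran from -1.74 to -1.17, with FDRs of 0.0537 to 0.466, so that none passed the threshold of 0.05. Both VEH libraries at 15 weeks had a peak at each of the 5, covering 78.5% to 100% of it, and neither CORT library did. At 5 weeks, too, both VEH libraries and no CORT library had a peak at all 5. At chr19:27658833-27661549, however, these VEH peaks covered 43.2% and 40.8% of the site, and the 5 week difference was 0.01. The lowest at 15 weeks was chr8:124570374-124572290, with a signal of 5.03 in CORT and 6.77 in VEH, a difference of -1.74 and an FDR of 0.0537. At 5 weeks its difference was -1.20 with an FDR of 0.0154. Of the 5 sites, 3 were called lower at 5 weeks, and the site chr4:122672733-122675142 (-1.33 at 15 weeks, -1.07 at 5 weeks) was the only one with H3K4me3 peaks.

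The 5 widest sites were 54.8 to 64.6 kb long and none was called. Their differences lay between -0.26 and 0.47, all below the table's median, and their centred values between -0.97 and -0.24. The widest, chr9:48510560-48575159, was the one among the 5 below 0, with a signal of 12.29 in CORT and 12.55 in VEH. Every one of the 5 had an H3K27ac peak in CORT replicate 2 and in both VEH libraries, and H3K4me3 peaks in all 4 libraries of that mark. The 10 called sites with the smallest FDR among those below the table's median were 6.5 to 33.1 kb wide. Their signals were 10.60 to 11.79 in CORT and 9.90 to 11.12 in VEH, and their differences 0.64 to 0.70. That they were strong follows from the call, since the smallest called difference at a signal of 8 to 9 was 0.76, and wide sites hold more reads. Of these 10, 8 had a peak in CORT replicate 1.

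Where the next site on the chromosome lay within 50 kb, it was called after 1152 of 3540 called sites (32.5%) and after 2405 of 17734 sites not called (13.6%). Joined wherever the gap to the next called site was at most 50 kb, the 4377 called sites formed 2476 groups. Of these, 1545 were single sites, 133 held 5 or more called sites (824 in all) and 12 held 9 or more (121 in all). In the run chr12:86679212-86839663, 13 of 18 sites were called, with a median difference of 1.17 and values from 0.45 to 1.95. In chr11:114745155-114867089, 12 of 13 were called and the differences were both higher and closer together, with a median of 1.92 and values from 1.67 to 2.16. In chr17:57418169-57499627, 9 of 9 were called, with a median of 1.61. These runs also showed how unevenly the VEH libraries held peaks: in the run on chromosome 11, CORT replicate 2 had a peak at 13 sites, VEH replicate 2 at 10, VEH replicate 1 at 2 and CORT replicate 1 at 0. Neighbouring sites share their region and their libraries, so a run is not a set of independent observations.

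**Figure D4:**
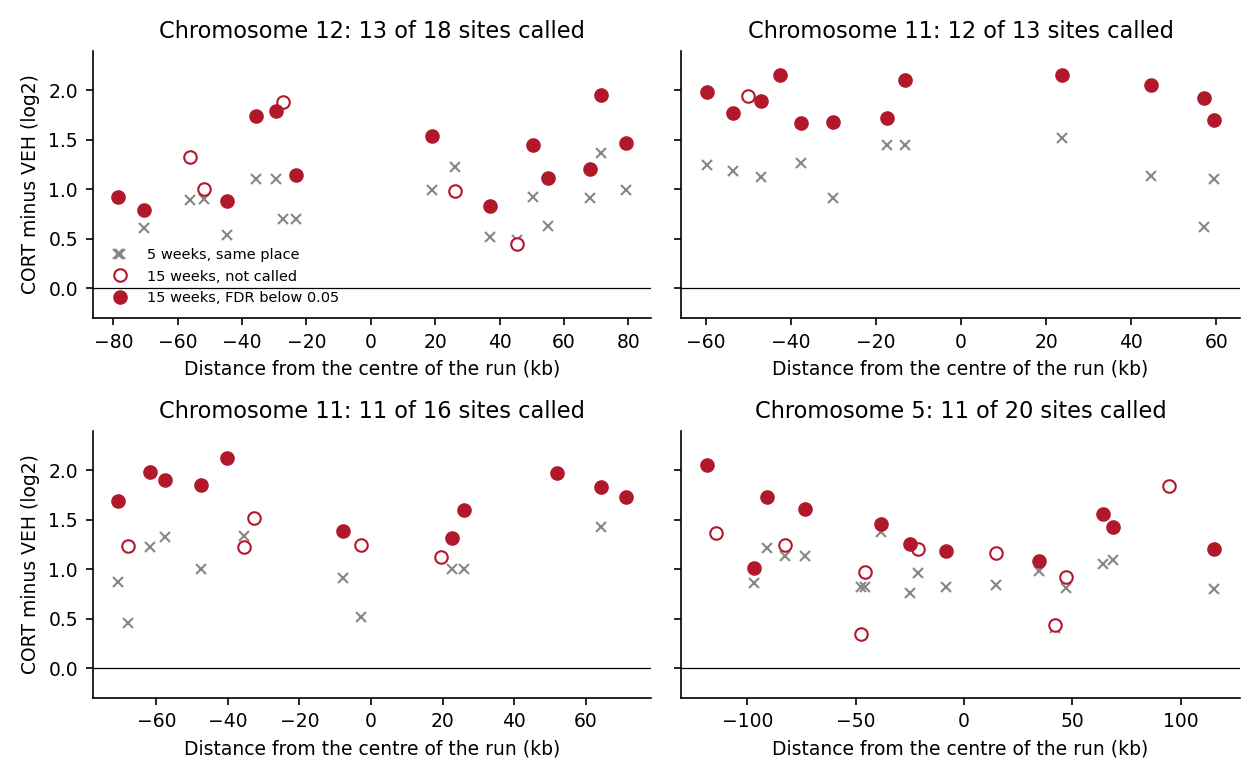
Difference between CORT and VEH (log2, vertical axis) against the distance from the centre of the run (kb, horizontal axis) for the 4 runs with the most called sites. Filled circles are called sites at 15 weeks, open circles sites not called, and crosses the value of the overlapping 5 week site: in the second panel 12 of 13 sites are called and all lie between 1.67 and 2.16.

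The other marks measured at 15 weeks in the same tissue were read at the same places. H3K4me3 peaks in all 4 of its libraries, as at active promoters, lay at 11833 H3K27ac sites (41.8%), and 11902 sites (42%) had none. The median difference of H3K27ac was 0.69 in the first class and 0.70 in the second, so sites with and without the promoter mark shifted by about the same amount. Their spread differed: the quartiles were 0.47 and 0.87 at sites with H3K4me3 in all 4 libraries, and 0.24 and 1.24 at sites without it. The share called was 15.8% and 11.9%, against 15.5% over all sites, and it was highest, at 25.4%, among the 2219 sites with an H3K4me3 peak in 1 library (median 1.01).

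An H3K4me3 site of the authors' table overlapped 2497 of the 4377 called H3K27ac sites (57%). There the H3K4me3 difference had a median of 1.15, and 2054 of them (82.3%) were called higher for H3K4me3, a table in which 47.1% of all sites were called higher and 0% lower. At H3K27ac sites not called, the median H3K4me3 difference was 1.07 and 77.4% were called, so the surplus at called sites was small beside the level common to both. Across the 14540 overlapping pairs of sites, the differences of the marks had a Pearson r of 0.36 and a Spearman rho of 0.35, as a description, with both signals counted over overlapping stretches of the genome.

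H3K27me3, the repressive mark on the same residue, met H3K27ac at few places. An H3K27me3 peak in any library lay at 644 sites (2.27%), of which 631 also had an H3K4me3 peak. The H3K27ac difference there had a median of 0.43, against 0.72 at the other 27678 sites, and 49 sites (7.61%) were called against 15.6%. Sites of the H3K27me3 table overlapped 343 H3K27ac sites, 22 of them called. At those 22 the H3K27me3 difference had a median of 0.43 and 1 was called higher, beside 15.9% of that table in all, and at the 321 others the median was 0.73. The Pearson r over the 343 pairs was -0.38 and the Spearman rho -0.36, given as a description: where the CORT signal stood higher for H3K27ac, it tended to stand less high for H3K27me3.

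The 5 week libraries, with their own CORT and VEH groups, gave a view of the same places during corticosterone. They share no H3K27ac library with the 15 week table. The input libraries are labelled CORT or VEH without a week, and the labels do not say whether they entered both comparisons. A site of the 5 week table overlapped 26233 of the 28322 sites (92.6%). At called sites the 5 week difference had a median of 0.86, and 2290 of 3968 (57.7%) were called higher at 5 weeks, where 17.2% of all sites of that table were called higher and 0.134% lower. At sites not called at 15 weeks, the median was 0.48 and 4221 of 22265 (19%) were called higher at 5 weeks. Read from the other side, 2238 of the 6819 sites called higher at 5 weeks (32.8%) touched a site called at 15 weeks. Sites called at 15 weeks thus had a larger 5 week difference than sites not called (medians of 0.86 and 0.48). Standing above VEH at 5 weeks was common to most sites, since 6.32% of all overlapping sites were below 0 there. The median of 1.37 at 15 weeks belongs to sites called on that same difference, so it cannot be set against the 0.86.

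Over the 26233 pairs, the differences at 15 and 5 weeks had a Pearson r of 0.75 and a Spearman rho of 0.68. Within classes of signal height, r ran from 0.60 to 0.82, and at the sites with peaks in CORT replicate 2 and both VEH libraries it was 0.68. The pairs are stretches of one genome measured with the same mark, so their number is not a number of independent samples. The relation extended to the sites below 0. The 5 week table held 53 sites called lower, 46 of them overlapped a 15 week site, and all 46 were below 0 at 15 weeks, with a median of -0.58 and values from -1.74 to -0.09, although none was called at 15 weeks. Of the 2240 sites below 0 at 15 weeks with a 5 week value, 1079 (48.2%) were also below 0 at 5 weeks, against 6.32% of all overlapping sites.

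**Figure D5:**
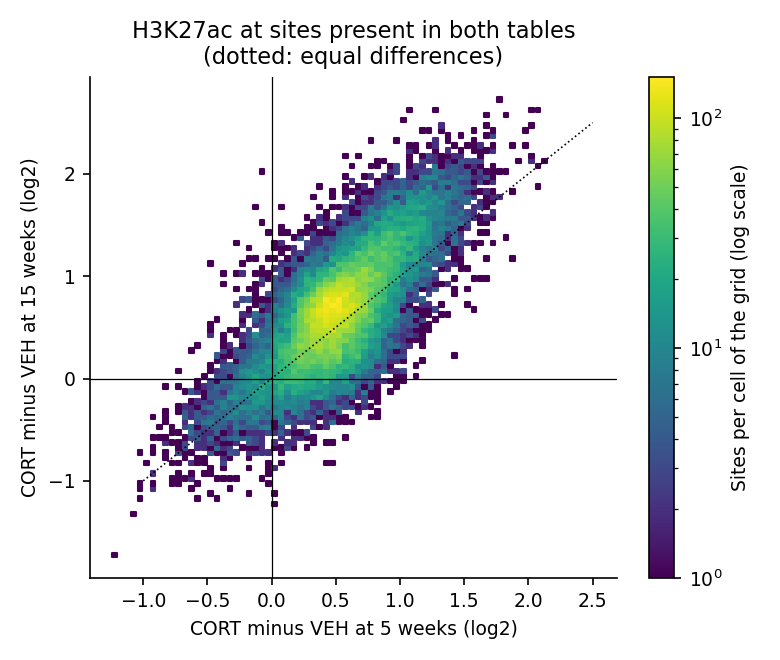
Difference between CORT and VEH for H3K27ac at 15 weeks (vertical axis) against 5 weeks (horizontal axis), both log2, for 26233 sites present in both tables, with the number of sites as colour on a log scale. The cloud runs along the diagonal with a Pearson r of 0.75.

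The libraries behind this relation were again not alike. Of the 1393 sites where CORT replicate 2 alone had a peak at 15 weeks, CORT replicate 1 at 5 weeks had a peak at 1272 (91.3%), whereas CORT replicate 2 at 5 weeks had one at 3 (0.215%), VEH replicate 1 at 94 (6.75%) and VEH replicate 2 at 70 (5.03%). At these places CORT replicate 1 was thus the only 5 week library with a peak at most sites. The sites were weak, with a median signal of 5.30 against 6.81 over all sites. In all, CORT replicate 2 had the fewest peaks of the 5 week libraries, so its lack of peaks here does not show likeness to VEH. CORT replicate 1 at 5 weeks had 41590 peaks and CORT replicate 2 had 22165, beside 40227 and 36284 in VEH. At the 15 week called sites, CORT replicate 1 of 5 weeks covered more of the site than VEH replicate 1 of 5 weeks at 85.9%, and CORT replicate 2 did so at 2.49%. At the 976 sites with peaks in both VEH libraries and not in CORT replicate 2 at 15 weeks, the 5 week CORT libraries had peaks at 54.3% and 25%, and the 5 week VEH libraries at 95.7% and 97.6%. What sets CORT replicate 2 of 15 weeks and CORT replicate 1 of 5 weeks apart from their partners was not tested.

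RNA of the enzymes that write, read and erase marks on this lysine was measured in 5 other libraries per group. Their estimated depth at 15 weeks was 25.4 to 36.7 (in 1e+06 reads), and values are FPKM, which scale a gene's fragments by its length and by the library. Of the 20 genes listed for this role, all 20 were tested with limma on log2(FPKM + 1) beside 15601 genes in all: 0 rose, where 3.83% of all genes rose, and 5 fell, where 6.8% of all genes fell. At an unadjusted p under 0.05 (limma) the counts were 0 higher and 8 lower, beside 1625 and 2341 of all 15601 genes. The authors' deposited table called 0 higher and 5 lower, beside 956 and 1221 of these genes. The median log2 fold change of the list was -0.14 and that of all genes 0. At 5 weeks limma called 1 of the 20 genes higher and 13 lower, beside 3485 and 3350 of all 15601 genes. The medians were then -0.38 for the list and 0.01 for all genes.

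Among the acetyltransferases, which add the mark, none passed the test. Ep300, which encodes p300, measured 13.8, 16, 18.6, 17.9 and 15.7 FPKM in the CORT libraries and 19.3, 20.8, 19.1, 20.2 and 14.1 in the VEH libraries. The groups overlapped through the last VEH library alone, and the log2 fold change was -0.17 ± 0.12 (SE, n = 5, limma adjusted p = 0.395). Crebbp, which encodes CBP, gave -0.11 ± 0.14 (SE, n = 5, limma adjusted p = 0.689), with a mean of 23.0 ± 2.71 FPKM in CORT and 25 ± 4.47 in VEH (SD, n = 5). Kat2b, the acetyltransferase PCAF, gave -0.39 ± 0.13 (SE, n = 5, limma adjusted p = 0.0571). Kat2a, the related GCN5, gave 0.21 ± 0.11 (SE, n = 5, limma adjusted p = 0.222).

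The 5 genes that fell belong to other roles. Suz12, a core subunit of the Polycomb complex that writes H3K27me3, measured 12.2, 17.0, 20.5, 17.4 and 16.9 FPKM in CORT and 25.3, 26.3, 25.8, 21.6 and 22.6 in VEH. Every CORT library was below every VEH library, and the log2 fold change was -0.52 ± 0.10 (SE, n = 5, limma adjusted p = 0.00563). Eed, another subunit of that complex, fell by 0.36 on the log2 scale (limma adjusted p = 0.0315), from 13.4 to 17.2 FPKM in VEH to 8.55 to 12.7 in CORT, again without overlap, and its call was lost without CORT replicate 1 or without VEH replicate 1, 2 or 3. Ezh2, its catalytic subunit, gave -0.30 (limma adjusted p = 0.0667) and did not pass.

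Among erasers, Sirt1, an NAD-dependent deacetylase, measured 6.82, 10.4, 12.5, 10.7 and 9.69 FPKM in CORT and 15.1, 14.4, 15.9, 13.8 and 14.7 in VEH. It fell by 0.54 on the log2 scale (limma adjusted p = 0.0064), with no overlap between the groups. The class I deacetylases Hdac1, Hdac2 and Hdac3 gave 0.10, -0.22 and 0.01, and none passed. Between the effects at 15 and 5 weeks, limma's test of the difference called 2 of the 20 genes higher at 15 weeks (Hdac5 and Hdac7), beside 6.57% of all genes, and 1 lower (Hdac9), beside 10.1%, and 16.7% of all genes in either direction. Kdm6a, a demethylase of H3K27me3, fell by 0.39 (limma adjusted p = 0.0161), from 12.2 to 15 FPKM in VEH to 7.52 to 11.7 in CORT. Brd2, a bromodomain protein that binds acetylated histones, fell by 0.36 (limma adjusted p = 0.0134), with 24.6 to 31.9 FPKM in CORT and 30.8 to 41.5 in VEH, which overlapped. The calls of Eed, Kdm6a and Brd2 were lost in the 10 libraries of 15 weeks alone, and that of Brd2 also under quantile normalization. Without the 7 RNA libraries that carry transcripts of other tissues, 0 of the 20 genes passed (limma, smallest adjusted p 0.0756), with 7 lower and 0 higher at an unadjusted p under 0.05. This took libraries from every group, among them CORT replicates 1 and 5 and VEH replicate 5 of 15 weeks. Over all genes it left 66 called higher and 115 lower, where the full set of libraries gave 598 and 1061. Suz12, Brd2, Sirt1, Eed and Kdm6a then had log2 fold changes of -0.42, -0.38, -0.37, -0.27 and -0.25.

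The RNA libraries held the defining transcripts of adipose tissue, with Adipoq (adiponectin) at 2031 to 4016 FPKM over all 10 libraries of 15 weeks. Of 30 adipocyte genes tested, 5 rose and 4 fell in CORT with limma (6 and 6 at an unadjusted p under 0.05, 6 and 4 in the authors' deposited table), with a median log2 fold change of -0.05. Over all 15601 genes tested, as given above, 3.83% rose and 6.8% fell with limma. At an unadjusted p under 0.05 (limma), 1625 of them were higher and 2341 lower, and the authors' deposited table called 956 higher and 1221 lower. Macrophage genes gave 3 higher and 1 lower of 30 with limma (10 higher and 3 lower at an unadjusted p under 0.05, 9 higher and 3 lower in the authors' deposited table). Their median log2 fold change was 0.34, with sums of 2727 to 3747 FPKM in CORT and 3641 to 5077 in VEH. Median and sums thus pointed in opposite directions, and genes with high FPKM weigh most in a sum. Genes of T, NK and B cells gave 0 of 19 in either direction with limma (3 higher and 0 lower at an unadjusted p under 0.05, 2 higher in the authors' deposited table), with sums of 27.3 to 199 FPKM in CORT and 31.4 to 70.3 in VEH. Endothelial genes gave 0 of 25 with limma (1 higher and 3 lower at an unadjusted p under 0.05, 1 lower in the authors' deposited table), with sums of 858 to 1434 FPKM in CORT and 619 to 1253 in VEH. Genes of epididymis and testis, of which 6 were tested and 0 passed (0 at an unadjusted p under 0.05), reached sums of 0.255 to 4306 FPKM in VEH and 2.26 to 1282 in CORT. Whether the ChIP libraries hold the same admixture cannot be read from site tables without gene names, and its part in the H3K27ac differences was not tested.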

How the data were processed

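Per the labels, ChIP-seq of H3K27ac, H3K4me3 and H3K27me3 and RNA-seq were made from mouse visceral adipose tissue. The submitters' processing notes name, without roles, DiffBind, DESeq2, Bowtie and TopHat and the builds mm9 and dm3. The deposited site tables hold group signals as log2 of mean normalized reads, their log2 difference, and the authors' p-value and FDR. The deposited peak lists, 1 per library, hold a score per peak, and their peak names contain MACS. The authors deposited FPKM for 24338 genes, and a gene table with mean normalized signal, log2 fold change and p-value. No column of values fell outside the listed samples.

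From these, the differences CORT minus VEH were taken per site, raw and centred on the table median, and called at the authors' FDR below 0.05. Sites and peaks were matched when they shared at least 1 base. Positions are printed as in the authors' table, where 99.3% of the starts equal a peak start of CORT replicate 2 or VEH replicate 2. The other tables gave the values of the site sharing most bases. RNA was tested with limma 3.58.1 (R 4.3.3, trend, two-sided, Benjamini-Hochberg) on log2(FPKM + 1) in all 20 libraries with 4 group means, for 15601 genes that reached 0.5 FPKM in 5 or more libraries. The pseudocount makes fold changes of low genes too small. The procedure was tested on simulated data first. RNA depth was estimated from the value of 1 read per gene, and 100% of values below 5 reads came out whole within 0.1. P-values measure the spread between libraries, since the labels do not say that these came from separate animals.

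Sites named in the text are the 10 with the smallest FDR above and below the table median, the 5 largest differences in each direction and the 5 widest. The planned restriction to sites with a linked gene could not be applied, and RNA of genes at H3K27ac sites was not compared, because the files give no gene per site and no mm9 annotation was used. Sites, lists and tests were chosen with earlier results of these data known. Alternatives covered thresholds, overlap, subsets of sites, and for RNA the pseudocount, filter, normalization, replicate block and libraries left out. Runs of called sites, the calls of neighbouring sites and the choice of 50 kb were made after the data were seen.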

Additional observations from a re-analysis of the deposited data

Results flagged for a closer look

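Among the 20 genes that write, read or erase marks on H3K27, each group of 5 RNA libraries at 15 weeks was examined for a library standing apart, and 2 of 40 groups had one, which is as many as chance gives at about 1 in 20. Eed measured 8.55 FPKM in CORT replicate 1, while the other CORT libraries lay between 12.0 and 12.7. Ep300 measured 14.1 FPKM in VEH replicate 5, while the other VEH libraries lay between 19.1 and 20.8. Both libraries are among those with transcripts of epididymis or testis, and the part of these was not tested.

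The effect of CORT differed between 15 and 5 weeks for 3 of the 20 genes, by limma's test of the difference itself with adjustment over all genes, in which 16.7% of all 15601 genes passed (6.57% higher and 10.1% lower), so that the share in the list is close to that of all genes. Hdac5, a class IIa deacetylase, differed by 0.38 on the log2 scale (15 weeks minus 5 weeks, limma adjusted p = 0.0351), with 0.11 at 15 weeks and -0.27 at 5 weeks. Hdac7, of the same class, differed by 0.92 (limma adjusted p = 0.03), with 0.21 and -0.71. Hdac9, also of this class, differed by -0.54 (limma adjusted p = 0.0278), with 0.24 and 0.78.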

How the results depend on the processing

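With the authors' FDR below 0.01, 1520 H3K27ac sites were called higher instead of 4377. Read by the centred difference, 48 called sites lay below the median instead of 0. At a 1.5-fold threshold 17329 sites were higher and 179 lower, against 8090 and 20 at 2-fold, and by the centred difference 1495 and 759. The median difference of 0.71 was 0.73 at sites with a peak of both VEH libraries or of CORT replicate 2. In 2 subsets chosen after seeing the data, sites with peaks in both VEH libraries and sites with peaks in those and CORT replicate 2, 2292 were called in each, and the medians were 0.55 and 0.58. The share of called sites also called at 5 weeks was 57.9% with at least 50% of the site overlapping and 47.5% in the second subset, against 57.7%. At sites not called, this share was 19% with that overlap and 13.8% in the second subset, against 19%.

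In RNA at 15 weeks, 598 genes rose and 1061 fell. The 10 libraries of 15 weeks alone gave 370 and 627. Leaving out the 7 libraries with transcripts of other tissues, which left fewer libraries in every group, gave 66 and 115. Leaving out 1 library at a time gave 263 to 728 higher and 447 to 1297 lower, and the counts moved by over 1.5 times without CORT replicate 1 (263 and 447), VEH replicate 2 (356 and 662) or VEH replicate 3 (376 and 558). The replicate block gave 213 and 480. Deviations of same-numbered libraries correlated from -0.44 to 0.36, and 1 of 5 CORT libraries correlated best with its own number, so the numbers were not treated as pairs. The causes of these changes were not tested. For the genes named from the H3K27 list, 16 of 128 values under an alternative setting lost their call, and 2 (Kat2b) gained one. Of the 5 that fell, Sirt1 and Suz12 passed in the 10 libraries of 15 weeks alone and under the block, and Eed, Kdm6a and Brd2 did not.

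RNA of genes at H3K27ac sites gave no value under any setting. The H3K27ac table rests on 1 CORT library, so leaving out a CORT library was not run, and ChIP depth is unknown.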
